A study of Rattus norvegicus with 15 samples.

Results

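Proteasome genes made up 46 of the 17055 genes counted in islet cells of 10-day-old Sprague-Dawley rats, an age given as 1.5 weeks. They were taken by their symbols: those beginning with Psma, Psmb, Psmc, Psmd, Psme, Psmf or Psmg followed by a number, without the immunoproteasome genes Psmb8, Psmb9 and Psmb10. They held 8 genes of the alpha ring and 8 of the beta ring of the 20S core, 6 ATPases and 11 other subunits of the 19S cap, 6 assembly chaperones and 5 genes of activators and an inhibitor. The other 2 were Psmc3ip, a meiotic recombination factor that the symbol brings in although it is no proteasome subunit, and Psma3l, which had 0 counts in all 15 libraries. Dispersed islet cells had received either a mimic of miR-17-5p, made to raise the amount of this microRNA, or a control. Sequencing covered poly(A) RNA from 5 miR-17-5p and 3 control samples (mRNA libraries). It also covered RNA pulled down with an antibody against Ago2, the protein that holds the microRNA inside the silencing complex (RISC), from 4 miR-17-5p and 3 control samples (RISC libraries). All groups came from rats of 1 strain, islets hold several cell types, and the sources used here do not give the share of cells that took up a mimic. The descriptions call the libraries biological replicates, but do not say whether each came from 1 animal or a pool, and their numbers differ from those in the titles, which are used here.

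The 26S proteasome degrades proteins that carry a ubiquitin chain. Its barrel, the 20S core, is made of outer alpha rings, which gate the entrance, and inner beta rings, which cut the substrate, and the 19S cap binds the ubiquitin chain, unfolds the protein with a ring of ATPases and feeds it into the barrel. In beta cells, which make large amounts of proinsulin, the proteasome also disposes of misfolded proteins exported from the endoplasmic reticulum. A microRNA guides Ago2 to transcripts through its seed. The RISC libraries show which transcripts came down with Ago2, and the mRNA libraries show their level in the cells. No pull-down with a control antibody is among the libraries, so transcripts carried along without binding Ago2 cannot be told apart.

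The transfected microRNA and the rat microRNAs that share its seed are shown because the RISC comparison rests on this sequence. The mature sequences are from RefSeq (GRCr8), 5′ to 3′, with the seed, bases 2 to 8, in capitals. In that build miR-17-5p of the gene Mir17 lies at chr15:98587861-98587883 on the plus strand.
rno-miR-17-5p: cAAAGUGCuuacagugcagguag
rno-miR-20a-5p: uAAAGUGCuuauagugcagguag
rno-miR-20b-5p: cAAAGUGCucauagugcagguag
rno-miR-93-5p: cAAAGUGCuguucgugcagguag
rno-miR-106b-5p: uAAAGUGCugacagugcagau

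RefSeq promoter windows of 300 bases (GRCr8), with 250 bases before and 50 after the start of the gene, were found for 40 of the 46 genes. The antioxidant response element core TGACNNNGC, the motif read by Nfe2l1 and Nfe2l2, factors known to drive proteasome genes, searched like the other motifs on both strands, occurred in 8 of the 40 windows (20%), against 15% of the windows of genes tested in this study and 12.1% of all windows. The CCAAT box occurred in 19 of the 40 (47.5%), against 36.8% and 37.5%. The GC box GGGCGG occurred in 30 of the 40 (75%), against 63.2% and 33.1%. A match is a run of letters and not a measured binding site, and overlaps between motifs were not removed. The windows of Psmb5, the catalytic subunit with chymotrypsin-like activity, and of Psme4, the activator PA200, are printed because these genes carry the element and are described in detail in the results, and the element is in capitals. That of Psmb5 lies at chr15:32047330-32047629 on the minus strand and that of Psme4 at chr14:108706393-108706692 on the plus strand. In Psme4 the element reads on the opposite strand.
Psmb5: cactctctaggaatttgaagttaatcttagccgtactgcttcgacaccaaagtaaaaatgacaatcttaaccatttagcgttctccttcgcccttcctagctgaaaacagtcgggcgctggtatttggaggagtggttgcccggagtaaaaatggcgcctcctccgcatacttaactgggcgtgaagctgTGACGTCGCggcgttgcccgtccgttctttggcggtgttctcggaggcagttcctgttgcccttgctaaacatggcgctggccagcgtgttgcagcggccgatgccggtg
Psme4: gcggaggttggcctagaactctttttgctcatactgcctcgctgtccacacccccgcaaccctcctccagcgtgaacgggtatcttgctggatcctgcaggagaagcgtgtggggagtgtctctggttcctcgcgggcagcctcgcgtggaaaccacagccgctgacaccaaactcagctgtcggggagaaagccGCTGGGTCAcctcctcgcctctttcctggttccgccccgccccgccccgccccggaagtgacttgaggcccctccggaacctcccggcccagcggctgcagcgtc

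**Figure D1:**
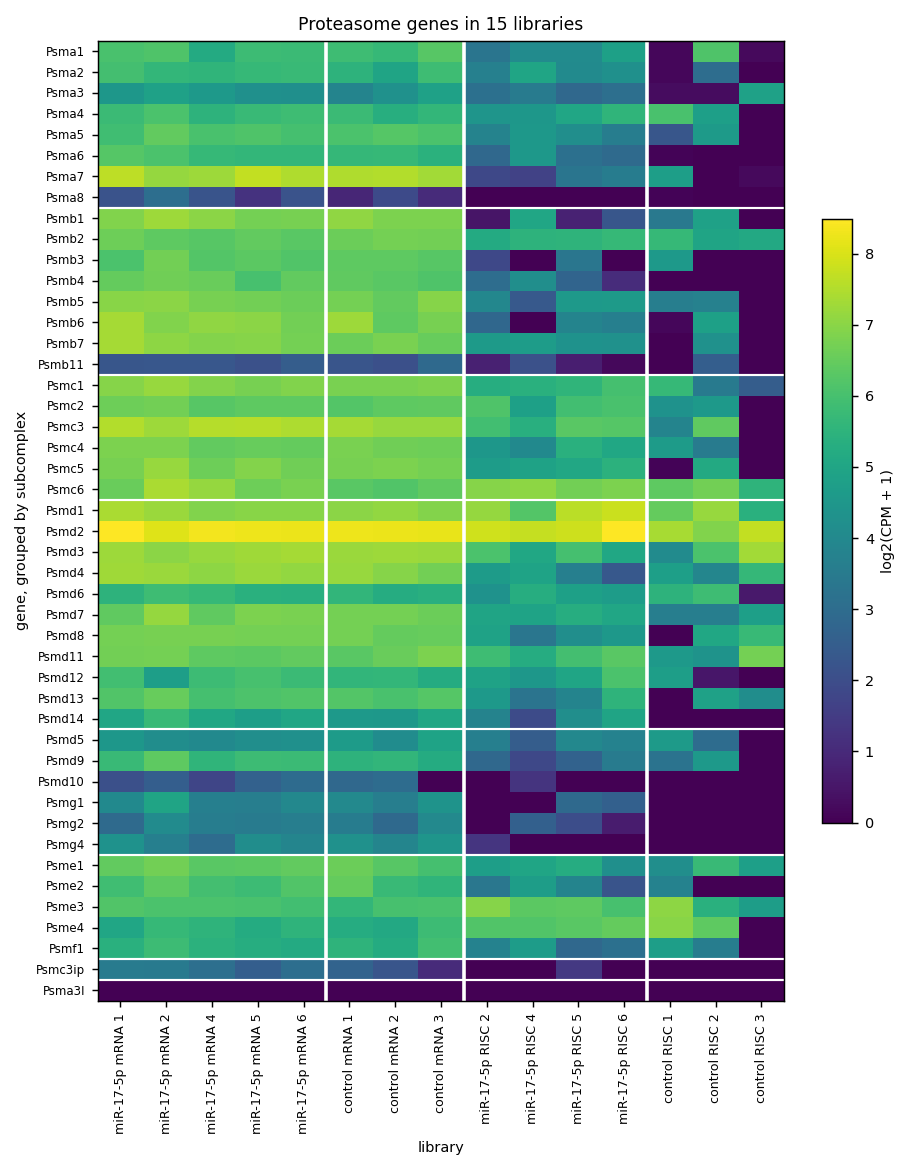
Level of the 46 genes (rows, grouped by subcomplex) in the 15 libraries (columns), as log2(CPM + 1), where CPM are counts scaled to library size. The control RISC columns hold many genes at 0, with 12, 13 and 29 genes at 0 in libraries 1, 2 and 3.

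The libraries held 3379456 to 21056240 counts, with control mRNA library 3 the smallest. Values are given as CPM, counts scaled to the TMM-adjusted library size, and a gene at 0 counts has an upper limit of 3 counts, which corresponds on average to 0.323 CPM in the control RISC libraries. The 46 genes took 0.287% to 0.379% of all counts in miR-17-5p mRNA libraries and 0.272% to 0.313% in control mRNA libraries. Their share was 0.15% to 0.178% in miR-17-5p RISC libraries and 0.123% to 0.151% in control RISC libraries. After all libraries were thinned to 3379456 counts, 39 to 42 of the 46 genes had a count in miR-17-5p RISC libraries and 17 to 33 in control RISC libraries. This moved with a fact of the whole libraries: of 17055 genes, 8888 to 10622 had a count in thinned miR-17-5p RISC libraries and 5474 to 7027 in control RISC libraries. Insulin transcripts, which define beta cells, took 26.2% to 41.8% of counts in miR-17-5p mRNA libraries and 36.8% to 41.6% in control mRNA libraries. Markers of stellate cells and fibroblasts also differed between the mimics, with a summed level of 22528 to 49106 CPM in miR-17-5p mRNA libraries and 11892 to 20966 CPM in control mRNA libraries. Of the 15 such markers tested, 10 were higher with miR-17-5p, against 3.11% of all genes tested. Other lists differed too. All 15 beta cell markers had estimates below 0 in mRNA, with 1 of them called lower, against 0.767% of all genes. All 12 macrophage and leukocyte markers had estimates above 0, and none was called. The part of these markers in the results on proteasome genes was not tested. In bulk RNA, fewer cells of a type and less RNA per cell cannot be told apart.

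The first comparison asked how the mimic changed the level of proteasome transcripts in the cells. Of the 46 genes, 45 had enough counts to be tested, and none passed an adjusted p under 0.05, against 3.87% of all 11077 genes (3.11% higher and 0.767% lower). Of the 45, 4 had an unadjusted p under 0.05, and DESeq2 and limma-voom each called 1, Psmc6. The log2 fold change of miR-17-5p over control was above 0 for 32 of the 45 genes, against 50.7% of all genes, and below 0 for 13. Its median was 0.11, against 0.01 over all genes. By subcomplex, it was positive in 6 of 8 genes of the alpha ring, 5 of 8 of the beta ring, 5 of 6 ATPases, 9 of 11 other 19S subunits, 3 of 6 chaperones and 3 of 5 activators and inhibitor. In Psmc6, all 5 miR-17-5p libraries lay above all 3 control libraries, which held for 8.42% of all genes and for no other of the 45.

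**Figure D2:**
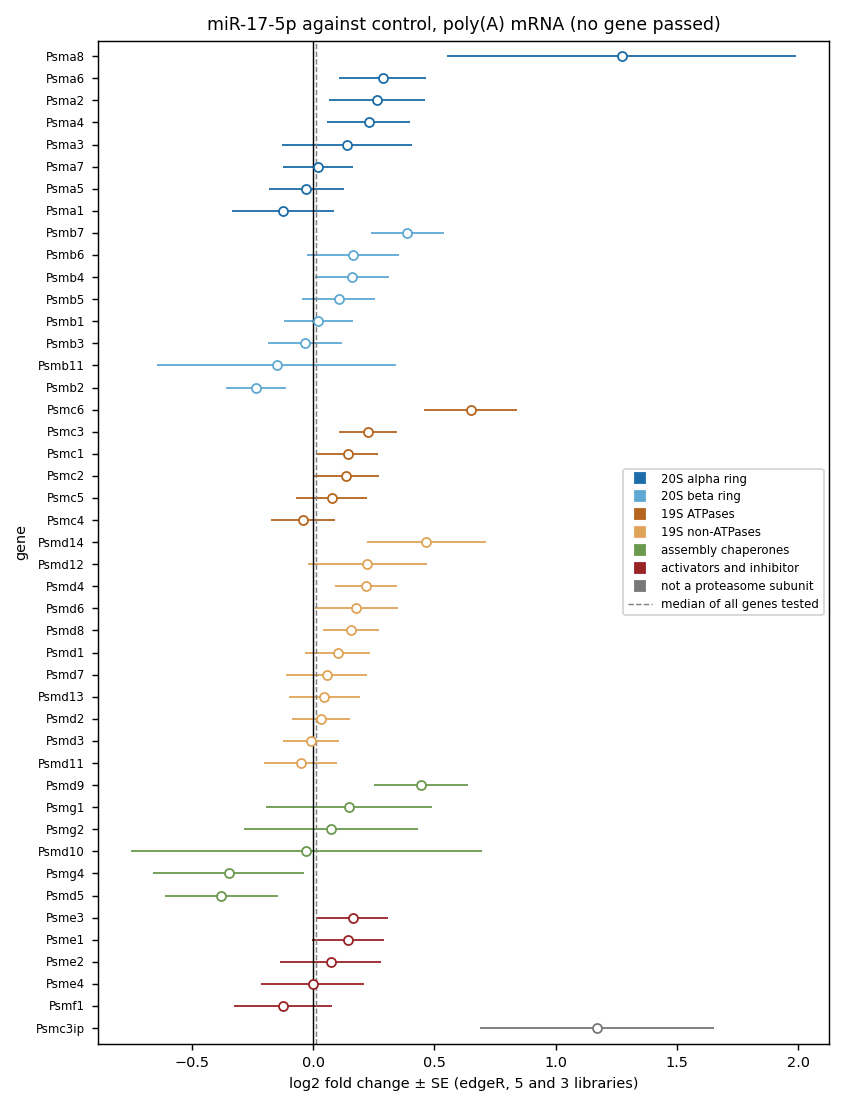
Log2 fold change of miR-17-5p over control in mRNA libraries (horizontal axis) with its standard error for the 45 genes tested (vertical axis, coloured by subcomplex), from edgeR with 5 and 3 libraries. No gene passed (open circles). All estimates lie between -0.38 and 0.65 except those of Psma8, at 1.27, and Psmc3ip, at 1.17, and Psma8 and Psmd10 have the widest errors.

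Summed levels of the subcomplexes were compared as a description. The alpha ring summed to 489 ± 45.4 CPM in miR-17-5p mRNA libraries and 463 ± 14.0 CPM in control mRNA libraries (SD, n = 5 and 3). The beta ring summed to 742 ± 75.9 CPM with miR-17-5p and 697 ± 47.6 CPM with control. The ranges of both rings overlapped between the mimics. The 6 ATPases summed to 719 ± 60.5 CPM with miR-17-5p and 628 ± 9.31 CPM with control. Their sums did not overlap, from 668 to 823 CPM with miR-17-5p against 618 to 637 CPM with control. The sum includes Psmc6, the only ATPase whose own libraries did not overlap, so it is not read as a trait of the whole ring. How often sums over other gene sets do not overlap was not tested. The 11 other 19S subunits summed to 1245 ± 50.4 CPM with miR-17-5p and 1175 ± 31.3 CPM with control, the chaperones to 122 ± 24.7 and 114 ± 10.0 CPM, and the activators with the inhibitor to 303 ± 31.2 and 289 ± 25.3 CPM. Those 3 sums overlapped between the mimics.

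**Figure D3:**
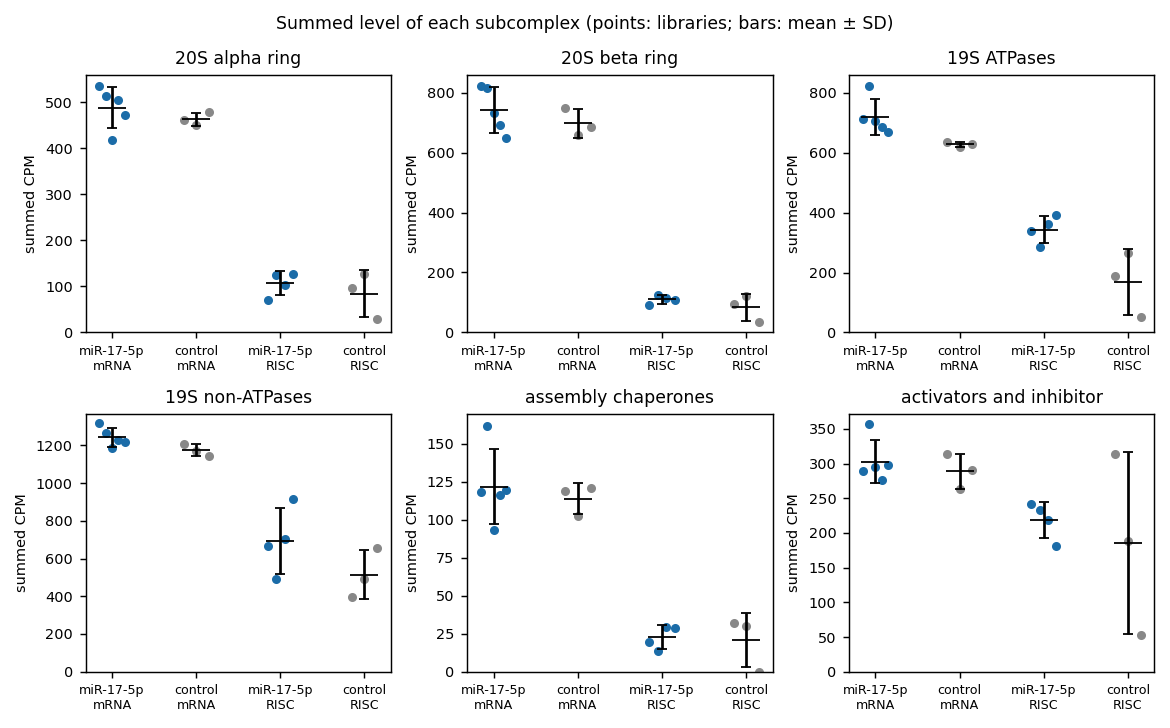
Summed CPM of each subcomplex (vertical axes) in the 4 groups of libraries, miR-17-5p left of control within mRNA and within RISC; points are libraries and bars are mean ± SD. RISC sums lie far below mRNA sums in both rings of the core, while the activators of control RISC library 1 reach 315 CPM.

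None of the 3 catalytic subunits of the beta ring passed the test in mRNA. Psmb5, with chymotrypsin-like activity, had 125, 129, 107, 103 and 94.7 CPM in miR-17-5p mRNA libraries, against 104, 86.9 and 121 CPM in control mRNA libraries. The libraries overlapped, and the log2 fold change was 0.11 ± 0.15 (SE), with an adjusted p of 0.756. Psmb6, with caspase-like activity, had 160.0, 118, 133, 128 and 101 CPM with miR-17-5p, against 152, 83.4 and 107 CPM with control, which also overlapped (log2 fold change 0.17 ± 0.19, adjusted p = 0.692). Psmb7, with trypsin-like activity, had 163, 131, 119, 122 and 104 CPM with miR-17-5p, against 94.4, 109 and 90.1 CPM with control. Only the lowest miR-17-5p library of Psmb7 lay within the control range, its log2 fold change was 0.39 ± 0.15, and the adjusted p was 0.176. Psmb4, a structural beta subunit, had 89.2, 99.5, 92.4, 63.8 and 86.1 CPM with miR-17-5p, against 83.5, 78.6 and 69.4 CPM with control, which lay inside the miR-17-5p range (log2 fold change 0.16 ± 0.15, adjusted p = 0.621). Psmb2, another structural subunit, had 96.6, 83.2, 77.4, 86.3 and 79.7 CPM with miR-17-5p, against 94.2, 104 and 102 CPM with control. Its estimate had a negative sign, -0.24 ± 0.12, with 1 miR-17-5p library inside the control range, and the adjusted p was 0.333. Psmb11, the beta subunit of the thymus, had 3.27 to 4.66 CPM with miR-17-5p and 3.19 to 6.41 CPM with control.

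In the alpha ring, Psma7 had 199, 141, 149.7, 208 and 176 CPM with miR-17-5p, against 176, 183 and 159 CPM with control, and the control values lay inside the miR-17-5p range. Its log2 fold change was 0.02 ± 0.14, with an adjusted p of 0.959. Psma6 had 74.9, 66.5, 50.9, 48.5 and 48.0 CPM with miR-17-5p, against 49.3, 51.0 and 41.7 CPM with control, with miR-17-5p libraries 1 and 2 above all others and the rest overlapping (log2 fold change 0.29 ± 0.18, adjusted p = 0.423). Psma8, an alpha subunit known from testis, had 1.35 to 7.31 CPM with miR-17-5p and 0.876 to 2.76 CPM with control. The other 5 alpha genes, Psma1 to Psma5, had log2 fold changes from -0.13 to 0.26 and overlapped between the mimics.

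Among the ATPases, which unfold the substrate, Psmc6 had 92.8, 169, 139.9, 97.7 and 110.1 CPM in miR-17-5p mRNA libraries, against 78.1, 71.5 and 84.0 CPM in control mRNA libraries, with no overlap. The log2 fold change was 0.65 ± 0.19, a fold of 1.57, and the adjusted p was 0.0815 in edgeR, which did not pass. It passed with DESeq2, at an adjusted p of 0.0368, with limma-voom, at 0.0266, and in edgeR without miR-17-5p mRNA library 1, at 0.0261. The libraries carried no strand, and in GRCr8 Psmc6 overlaps Styx and Rps10l6 and has like-named pseudogenes, so their reads cannot be told apart where they overlap. Psmc3 had 183, 151, 185, 188 and 172 CPM with miR-17-5p, against 163, 144 and 145 CPM with control (log2 fold change 0.22 ± 0.12, adjusted p = 0.343). Psmc5 had 105, 145, 96.0, 120.0 and 100.3 CPM with miR-17-5p, against 105, 113 and 105 CPM with control (log2 fold change 0.08 ± 0.15, adjusted p = 0.827). Both overlapped between the mimics.

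The other 19S subunits include the scaffold proteins and the enzyme that removes the ubiquitin chain. Psmd1, a scaffold of the cap, had 168, 147, 118, 126 and 126 CPM with miR-17-5p, against 128, 137 and 119.6 CPM with control. Psmd2, the other large scaffold, had 351, 268, 324, 306 and 298 CPM with miR-17-5p, against 311, 304 and 293 CPM with control. For both scaffolds the control values lay inside the miR-17-5p range, with log2 fold changes of 0.10 ± 0.14 (adjusted p = 0.744) and 0.03 ± 0.12 (adjusted p = 0.912). Psmd14, the deubiquitinase of the cap, had 31.6, 53.2, 32.4, 26.0 and 31.6 CPM with miR-17-5p, against 22.8, 22.0 and 32.0 CPM with control. Library 2 of the miR-17-5p group lay far above its other 4 libraries, and the log2 fold change was 0.47 ± 0.25 (adjusted p = 0.334). Psmd7, which pairs with Psmd14, had 84.0, 140.0, 85.0, 111 and 109 CPM with miR-17-5p, against 105, 104 and 95.8 CPM with control (log2 fold change 0.06 ± 0.17, adjusted p = 0.893). Psmd11, a subunit that holds the cap to the core, had 101, 103, 81.7, 80.8 and 85.9 CPM with miR-17-5p, against 78.8, 91.9 and 112 CPM with control (log2 fold change -0.05 ± 0.15, adjusted p = 0.893). These 2 genes overlapped between the mimics. Psmd8, a lid subunit, had 105, 106, 106, 104 and 103 CPM with miR-17-5p, against 104, 88.6 and 89.7 CPM with control, with control library 1 inside the miR-17-5p range (log2 fold change 0.16 ± 0.12, adjusted p = 0.517).

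Assembly chaperones help to build the core or the cap and are not part of the finished particle. Psmg1, which pairs with Psmg2 to assemble the alpha ring, had 15.4, 30.3, 11.7, 11.3 and 14.6 CPM with miR-17-5p, against 14.8, 11.5 and 19.6 CPM with control (log2 fold change 0.15 ± 0.34, adjusted p = 0.857). Psmg2 had 6.61, 16.1, 11.01, 10.6 and 11.5 CPM with miR-17-5p, against 10.8, 6.53 and 14.95 CPM with control (log2 fold change 0.07 ± 0.36, adjusted p = 0.939). The control values of Psmg1 lay within the miR-17-5p range, and those of Psmg2 did so except the lowest. Psmd9, a chaperone of the ATPase ring, had 52.7, 81.8, 45.8, 55.0 and 54.8 CPM with miR-17-5p, against 43.5, 47.4 and 36.7 CPM with control, with 1 miR-17-5p library inside the control range (log2 fold change 0.44 ± 0.19, adjusted p = 0.228). Psmd10, known as gankyrin, had 3.21, 4.74, 2.41, 5.19 and 6.87 CPM with miR-17-5p, against 6.24, 6.96 and 0 CPM with control (log2 fold change -0.03 ± 0.72, adjusted p = 0.989). Its control values spanned 0 in the smallest library to the highest of all mRNA libraries. Pomp, the maturation factor of the core, is listed in the files with 0 counts in every library, and no value is drawn from it.

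Activators replace the 19S cap at the ends of the core. Psme1 and Psme2 together form PA28, induced by interferon. Psme1 had 86.2, 101, 78.1, 81.2 and 86.1 CPM with miR-17-5p, against 94.6, 77.0 and 63.0 CPM with control (log2 fold change 0.14 ± 0.15, adjusted p = 0.658). Psme2 had 58.7, 82.2, 61.3, 55.2 and 72.2 CPM with miR-17-5p, against 88.2, 52.9 and 45.9 CPM with control (log2 fold change 0.07 ± 0.21, adjusted p = 0.891). In both genes library 1 was the highest of the control libraries and the mimics overlapped. Psme4, the nuclear activator PA200, had 31.3, 50.5, 45.4, 36.7 and 45.0 CPM with miR-17-5p, against 37.7, 33.6 and 55.5 CPM with control. Its mean was 41.8 ± 7.67 CPM with miR-17-5p and 42.3 ± 11.7 CPM with control (SD, n = 5 and 3), and the log2 fold change was -0.00 ± 0.21 (edgeR adjusted p = 0.996). Psmf1, an inhibitor of the core in vitro, had 41.3, 55.9, 42.5, 37.9 and 35.3 CPM with miR-17-5p, against 44.7, 36.0 and 59.8 CPM with control (log2 fold change -0.12 ± 0.20, adjusted p = 0.793). Psmc3ip, the recombination factor, had 10.6, 10.2, 7.57, 4.81 and 7.46 CPM with miR-17-5p, against 5.47, 3.77 and 1.07 CPM with control. Only the lowest miR-17-5p library lay inside the control range, with a log2 fold change of 1.17 ± 0.48 and an adjusted p of 0.206. The members tested but given no values by library in mRNA, Psmb1, Psmb3, Psmc1, Psmc2, Psmc4, Psmd3, Psmd4, Psmd5, Psmd6, Psmd12, Psmd13, Psme3 and Psmg4, had log2 fold changes from -0.38 for Psmd5, a chaperone of the cap, to 0.22 for Psmd12, a lid subunit.

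The second comparison asked whether the mimic changed how much of each proteasome transcript was pulled down with Ago2. Of the 46 genes, 38 could be tested in RISC libraries, and none passed, against 0.371% of all 9443 genes (0.339% higher and 0.0318% lower). The 8 not tested were Psma3l, Psma8, Psmb11, Psmc3ip, Psmd10, Psmg1, Psmg2 and Psmg4. Summed stellate cell and fibroblast markers ranged over 24235 to 27144 CPM with miR-17-5p and 4583 to 10078 CPM with control in RISC, 6 of 15 tested markers were higher, and their part in the RISC values was not tested. Unadjusted p was under 0.05 for 4 of the 38, and DESeq2 called 3, Psma6, Psmb4 and Psmd14, while limma-voom called 0. All 4 miR-17-5p libraries lay above all 3 control libraries in 8 of the 38 genes, a share near the 17.6% of all genes. The 8 were Psma2, Psma6, Psmb4, Psmc2, Psmc6, Psmd14, Psmd2 and Psmd7. None of the 38 lay entirely below, against 3.36% of all genes. The median log2 fold change was 0.50, against 0.27 over all genes. In edgeR, leaving out control RISC library 2 gave 6 calls and leaving out miR-17-5p RISC library 4 gave 1, Psma6.

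Psmb4, Psmd14 and Psma6 had the smallest p-values. They reached the test through the miR-17-5p libraries alone, so they could only come out higher, and no support is drawn from their direction. Psmb4 had 7.14, 17.3, 5.71 and 1.12 CPM in miR-17-5p RISC libraries, against 0, 0 and 0 CPM in control RISC libraries. Against the floor of 3 counts per library it was at least 24.2-fold higher, and the adjusted p was 0.0741. Psmd14 had 12.8, 2.82, 17.3 and 30.1 CPM with miR-17-5p, against 0, 0 and 0 CPM with control, at least 48.8-fold higher (adjusted p = 0.0725). The 3 control libraries had 0 counts of both genes, and every miR-17-5p library had at least 8. Psma6 had 6.22, 22.3, 7.86 and 6.72 CPM with miR-17-5p, against 0.0556, 0 and 0 CPM with control, which is 1 read in the 3 control libraries. The ratio of the summed counts was 362, with a counting interval from 64.6 to 14322 (exact binomial, 95%), and the adjusted p was 0.0725. Such zeros were common in the control RISC libraries: of the 11077 genes tested in mRNA, 34.2% to 50.05% had 0 counts there, against 7.39% to 20.3% in miR-17-5p RISC libraries. Their part in these values was not tested.

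**Figure D4:**
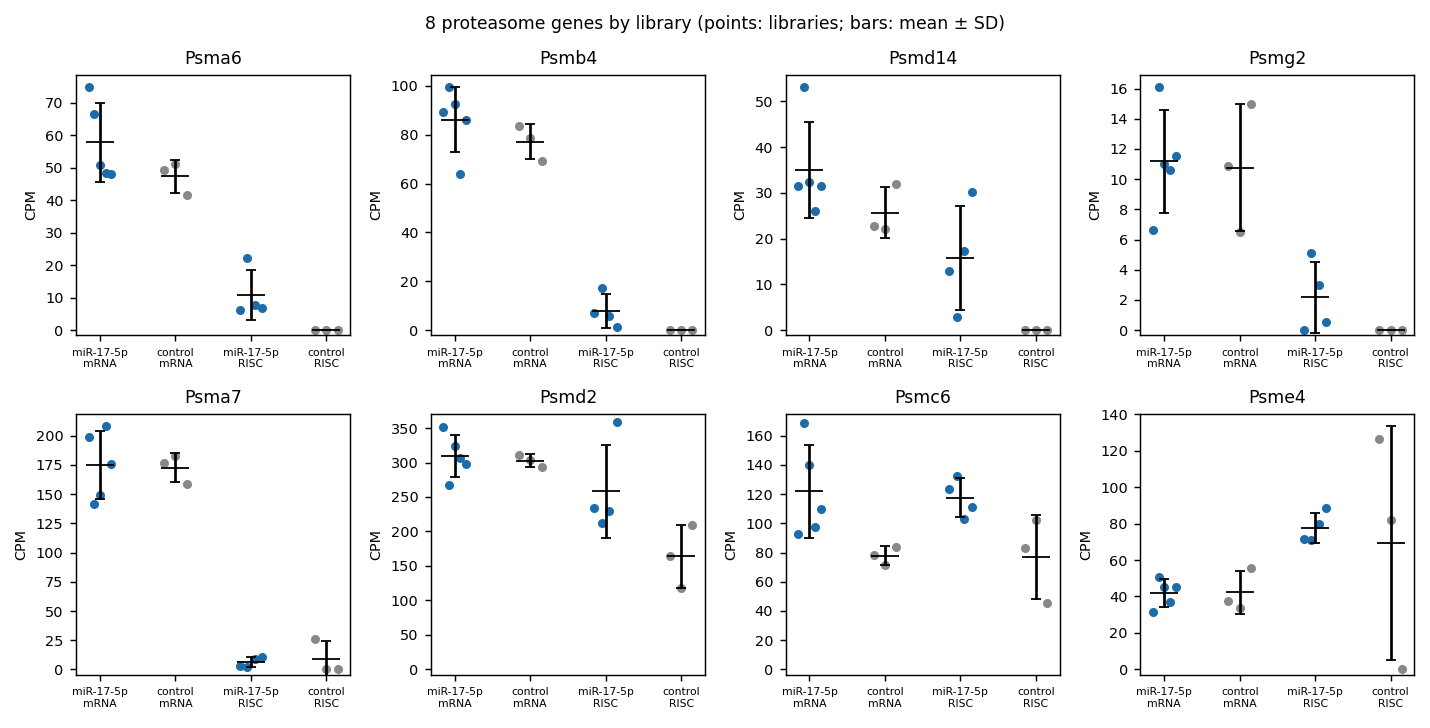
CPM of 8 genes (vertical axes) in the 4 groups of libraries, miR-17-5p left of control; points are libraries and bars are mean ± SD. Psma6, Psmb4, Psmd14 and Psmg2 have control RISC values at or near 0, Psma7 is far lower in RISC than in mRNA, and Psme4 is higher in miR-17-5p RISC than in miR-17-5p mRNA.

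Values of most other core genes varied widely between the control RISC libraries. Psmb5 had 14.3, 4.23, 23.2 and 23.7 CPM in miR-17-5p RISC libraries, against 11.3, 12.2 and 0 CPM in control RISC libraries (log2 fold change 1.08 ± 1.79, adjusted p = 0.955). Psmb6 had 6.16, 0, 13.4 and 11.6 CPM with miR-17-5p, against 0.111, 27.3 and 0 CPM with control (log2 fold change -0.22 ± 2.40, adjusted p = 0.993). Psmb7 had 23.7, 24.7, 19.1 and 18.5 CPM with miR-17-5p, against 0, 18.7 and 0 CPM with control (log2 fold change 1.79 ± 2.19, adjusted p = 0.904). The 3 catalytic genes were at 0 in control library 3, and Psmb7 was within a narrow range in the miR-17-5p libraries. Psma7 had 2.55, 2.20, 8.79 and 10.9 CPM with miR-17-5p, against 26.4, 0 and 0.159 CPM with control, where library 1 lay above every miR-17-5p library (log2 fold change -0.49 ± 2.09, adjusted p = 0.986). Psmb2 had 35.2, 44.3, 44.5 and 50.4 CPM with miR-17-5p, against 51.1, 30.1 and 34.0 CPM with control (log2 fold change 0.21 ± 0.57, adjusted p = 0.982). It was among the 3 core genes with a count in every RISC library, with Psma1 and Psma3.

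In the 19S cap, Psmc6 had 124, 133, 103 and 111 CPM with miR-17-5p, against 83.1, 102 and 45.3 CPM with control, without overlap but with control library 2 close to the lowest miR-17-5p library (log2 fold change 0.63 ± 0.35, adjusted p = 0.421). Psmc3 had 59.2, 39.8, 79.0 and 75.5 CPM with miR-17-5p, against 13.3, 84.1 and 0 CPM with control (log2 fold change 0.98 ± 1.39, adjusted p = 0.937). Psmc5 had 25.1, 28.6, 32.8 and 43.1 CPM with miR-17-5p, against 0.0556, 35.1 and 0 CPM with control (log2 fold change 1.47 ± 1.95, adjusted p = 0.923). Log2 fold changes of all 6 ATPases were positive, from 0.63 to 2.02, and none passed. Of all genes, 59% were positive, and 4 of the 6 ATPases had 0 counts in control RISC library 3. Psmd2 had 234, 212, 230.1 and 359 CPM with miR-17-5p, against 164, 118 and 210.0 CPM with control. The groups only just did not overlap, and miR-17-5p library 6 lay far above the rest. Its log2 fold change was 0.68 ± 0.29 (adjusted p = 0.219). Psmd1 had 141, 73.2, 194 and 225 CPM with miR-17-5p, against 88.2, 143 and 41.1 CPM with control, which overlapped (log2 fold change 0.82 ± 0.50, adjusted p = 0.515). Psmd7 had 29.9, 29.2, 38.5 and 31.7 CPM with miR-17-5p, against 11.5, 11.4 and 26.5 CPM with control (log2 fold change 0.99 ± 0.93, adjusted p = 0.812). The miR-17-5p libraries of Psmd7 lay together above control. Psmd8 had 28.5, 8.98, 17.2 and 22.0 CPM with miR-17-5p, against 0, 32.4 and 52.1 CPM with control (log2 fold change -0.54 ± 1.67, adjusted p = 0.984). Psmd11 had 56.6, 37.6, 61.3 and 78.3 CPM with miR-17-5p, against 22.4, 19.4 and 105 CPM with control (log2 fold change 0.28 ± 0.68, adjusted p = 0.977). In both of these, control library 3 lay above every miR-17-5p library.

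Counts of assembly chaperones were low in RISC. Psmg1 had 0, 0, 6.55 and 5.04 CPM with miR-17-5p and Psmg2 had 0, 5.11, 2.99 and 0.560 CPM, and both were at 0 in all 3 control RISC libraries. Too few counts were present to test them in RISC alone. Against the floor of 3 counts per library, the mean over the miR-17-5p libraries was at least 8.97-fold higher for Psmg1 and at least 6.70-fold higher for Psmg2, although Psmg1 was also at 0 in 2 of the 4 miR-17-5p libraries and Psmg2 in 1. Psmd9 had 6.22, 2.55, 5.33 and 10.5 CPM with miR-17-5p, against 8.46, 23.3 and 0 CPM with control (log2 fold change -0.77 ± 1.82, adjusted p = 0.976). Psmd10 was detected in 1 RISC library, miR-17-5p library 4, at 1.41 CPM, and Psmc3ip in 1, miR-17-5p library 5, at 1.68 CPM. Of the activators, Psme1 had 26.1, 30.7, 37.0 and 17.6 CPM with miR-17-5p, against 17.3, 53.2 and 26.8 CPM with control (log2 fold change -0.20 ± 0.84, adjusted p = 0.986). Psme2 had 9.30, 25.4, 13.1 and 3.64 CPM with miR-17-5p, against 12.5, 0 and 0 CPM with control (log2 fold change 1.66 ± 2.24, adjusted p = 0.924). Psme4 had 71.4, 71.1, 79.6 and 88.7 CPM with miR-17-5p, against 126, 82.2 and 0 CPM with control (log2 fold change 0.19 ± 1.27, adjusted p = 0.989). The miR-17-5p libraries of Psme4 lay close together, while the control libraries ran from 0 to the highest value of all. Psmf1 had 12.5, 25.0, 6.36 and 7.84 CPM with miR-17-5p, against 26.0, 11.2 and 0 CPM with control (log2 fold change 0.09 ± 1.77, adjusted p = 0.997).

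The third comparison set the RISC libraries against the mRNA libraries of the same mimic. It shows which transcripts were rich or poor in RNA pulled down with Ago2, relative to their level in the mRNA libraries. In miR-17-5p cells, 30 of the 45 proteasome genes tested were lower in RISC, against 21.8% of all 10871 genes, and 2 were higher, Psme4 and Psme3, against 21.7%. The median log2 fold change of RISC over mRNA was -1.56, against -0.15 over all genes, and 36 of the 45 had every RISC library below every mRNA library, against 28.6% of all genes. All 8 alpha genes and 7 of 8 beta genes were lower, as were 4 of 6 ATPases, 5 of 11 other 19S subunits, 2 of 6 chaperones and 3 of 5 activators and inhibitor. Psmc3ip, the recombination factor, was also lower (adjusted p = 0.0472), with 3 of the 4 RISC libraries at 0. It did not pass with the replicate block or in most fits with a library left out. With DESeq2 size factors the median of all genes was -0.26 and with upper quartile factors -0.24, and Psme3 no longer passed under either. The labels state poly(A) selection for the mRNA libraries alone, and Rn45s, ribosomal precursor RNA, took 26.6% to 42.6% of counts in miR-17-5p RISC libraries and 3.75% to 12.8% in miR-17-5p mRNA libraries, so library preparation and Ago2 binding cannot be told apart.

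**Figure D5:**
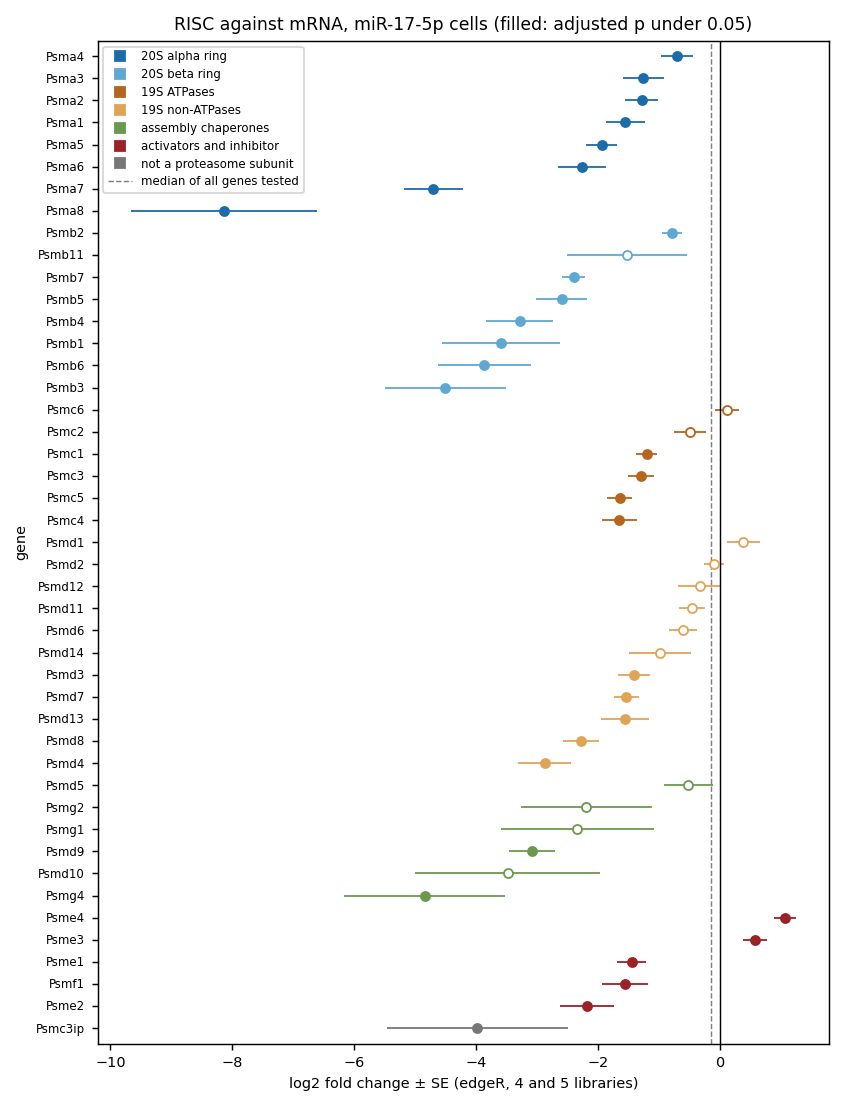
Log2 fold change of RISC over mRNA in miR-17-5p cells (horizontal axis) with its standard error for 45 genes (vertical axis, grouped by subcomplex), from edgeR with 4 and 5 libraries. Filled circles passed an adjusted p under 0.05, and Psme4 and Psme3 are the filled circles right of 0. The value for Psma8, with 0 RISC counts, depends on the prior count of the fit.

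All called genes of the core were lower in RISC. Psma7 had a log2 fold change of RISC over mRNA of -4.70 ± 0.48 (adjusted p = 1.48e-05), and its mean was 6.12 ± 4.41 CPM in RISC and 175 ± 29.2 CPM in mRNA (SD, n = 4 and 5). Psmb3, a structural subunit, had -4.51 ± 0.99 (adjusted p = 0.00317), with 2 of the 4 RISC libraries at 0. Of the catalytic genes, Psmb6 had -3.87 ± 0.77 (adjusted p = 0.00169), Psmb5 -2.60 ± 0.42 (adjusted p = 0.000388) and Psmb7 -2.40 ± 0.19 (adjusted p = 2.33e-06) as log2 fold changes of RISC over mRNA. Psmb4 had -3.29 ± 0.54 (adjusted p = 0.000476), and Psmb1, a structural subunit, had -3.60 ± 0.96 (adjusted p = 0.00981). Psmb2 had the estimate nearest 0 among the 7 called beta genes, -0.80 ± 0.16 (adjusted p = 0.00193). Psma8 had 0 counts in the 4 RISC libraries and was at least 13.2-fold lower than in mRNA against the floor of 3 counts per library. The alpha genes other than Psma7 and Psma8 had log2 fold changes from -2.27 for Psma6 to -0.71 for Psma4.

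As shares of the summed level of all members, the alpha ring made up 7.21% ± 2.02 in miR-17-5p RISC libraries and 13.5% ± 0.884 in miR-17-5p mRNA libraries (SD, n = 4 and 5). The beta ring made up 7.49% ± 1.68 in RISC and 20.4% ± 1.11 in mRNA. The other 19S subunits made up 45.9% ± 5.599 in RISC and 34.4% ± 1.35 in mRNA, and the activators with the inhibitor 14.9% ± 3.50 in RISC and 8.35% ± 0.603 in mRNA. The ATPases made up 22.9% ± 0.784 in RISC and 19.8% ± 0.858 in mRNA, and the chaperones 1.50% ± 0.364 in RISC and 3.34% ± 0.509 in mRNA. In all 6 shares the RISC and mRNA libraries of miR-17-5p cells did not overlap. The shares are parts of the same total, so a lower share of the rings raises the others, and they are not separate results. A higher share is not a higher level. In miR-17-5p cells the other 19S subunits summed to 695 CPM in RISC and 1245 CPM in mRNA, the ATPases to 343 and 719 CPM, and the activators with the inhibitor to 219 and 303 CPM. In control cells the shares of the alpha ring, the beta ring and the chaperones were below mRNA in every RISC library, and those of the other 3 overlapped. There the ATPases made up 14.9% ± 7.99 in RISC and 18.7% ± 0.370 in mRNA (SD, n = 3 each), a difference of the opposite sign to that in miR-17-5p cells. In control cells the other 19S subunits made up 35.4% or more in RISC and up to 35.9% in mRNA, and the activators with the inhibitor 6.38% to 27.9% in RISC and 8.05% to 8.98% in mRNA.

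In the 19S cap, 9 of 17 genes were lower in RISC and the others did not pass. Log2 fold changes of RISC over mRNA were 0.38 ± 0.27 for Psmd1 (adjusted p = 0.294), -0.10 ± 0.16 for Psmd2 (adjusted p = 0.659) and 0.11 ± 0.19 for Psmc6 (adjusted p = 0.672). The sign of Psmc6 turned with DESeq2 size factors, to -0.01. Under limma-voom Psmd1 was higher in RISC, at 0.56 with an adjusted p of 0.033, and without miR-17-5p RISC library 4 it was higher in RISC, at 0.62 with an adjusted p of 0.0134. Psmd11 had -0.47 ± 0.21 (adjusted p = 0.0922) and Psmd14 -0.99 ± 0.51 (adjusted p = 0.144), which did not pass. Psmd11 passed as lower with DESeq2 size factors (adjusted p = 0.036), upper quartile factors (adjusted p = 0.0456) and the DESeq2 Wald test (adjusted p = 0.0228). Without miR-17-5p RISC library 6, Psmd11 and Psmd14 passed as lower, at adjusted p of 0.035 and 0.0459. Lower in RISC were Psmd4, a ubiquitin receptor, at -2.88 ± 0.44 (adjusted p = 0.000272), Psmd8 at -2.28 ± 0.29 (adjusted p = 7.54e-05) and Psmd7 at -1.54 ± 0.21 (adjusted p = 0.000108). Among the ATPases, Psmc5 had -1.65 ± 0.20 (adjusted p = 5.90e-05) and Psmc3 had -1.30 ± 0.21 (adjusted p = 0.000423). The chaperone Psmd9 had -3.08 ± 0.38 (adjusted p = 5.97e-05), while Psmg1 and Psmg2 had -2.34 ± 1.25 and -2.19 ± 1.08 and did not pass.

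Activators passed in both directions. Psme4 averaged 77.7 ± 8.28 CPM in miR-17-5p RISC libraries and 41.8 ± 7.67 CPM in miR-17-5p mRNA libraries (SD, n = 4 and 5), and every RISC library lay above every mRNA library, which held for 16.3% of all genes. The log2 fold change was 1.06 ± 0.18, with an adjusted p of 0.000675, and the call held in each of the other 8 settings and with each of the 9 libraries left out. Psme3, the nuclear PA28 activator, had 122, 80.4, 82.5 and 63.6 CPM in RISC, against 71.3, 66.8, 67.3, 64.8 and 59.8 CPM in mRNA. Its values overlapped, and the log2 fold change was 0.57 ± 0.20 (adjusted p = 0.0345). Psme1 and Psme2, the interferon-induced pair, had log2 fold changes of RISC over mRNA of -1.45 ± 0.23 (adjusted p = 0.000395) and -2.19 ± 0.44 (adjusted p = 0.00179), and Psmf1 had -1.57 ± 0.38 (adjusted p = 0.00554).

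In control cells, 10 of the 42 proteasome genes tested were lower in RISC, against 22.3% of all 10170 genes, and none was higher, against 5.96%. Unadjusted p was under 0.05 for 11 of the 42. At 23.8%, the share of members called was near that of all genes. The median log2 fold change was -2.28, against -0.69 over all genes, and every RISC library lay below every mRNA library in 30 of the 42, against 39.9% of all genes. The 10 were Psma6, Psmb2, Psmb4, Psmd2, Psmd4, Psmd7, Psmd14, Psmg1, Psmg2 and Psmg4. Against the floor of 3 counts per library, Psmb4 was at least 239-fold lower in RISC, Psmd14 at least 79.3-fold, Psmg4 at least 54.3-fold, Psmg1 at least 47.3-fold and Psmg2 at least 33.4-fold. These 5 genes had 0 counts in every control RISC library and reached the test through the mRNA libraries alone, so they could only come out lower. Of all genes tested in mRNA, 34.2% to 50.05% were at 0 in the control RISC libraries, and the part of this in the calls was not tested. Psma6 had 1 count in the 3 RISC libraries and 919 in the 3 mRNA libraries, a ratio of mRNA over RISC of 1635 with a counting interval from 293 to 64648. Of the called genes with a count in every library, Psmd7 had a log2 fold change of RISC over mRNA of -2.63 ± 0.50 (adjusted p = 0.0127), Psmd4 of -2.03 ± 0.54 (adjusted p = 0.0380), Psmb2 of -1.38 ± 0.35 (adjusted p = 0.0314) and Psmd2 of -0.88 ± 0.25 (adjusted p = 0.0466). Psme4 had 0.72 ± 1.80 (adjusted p = 0.871). Control RISC library 3 held 0 counts of it, and without that library it was higher in RISC at 1.30 with an adjusted p of 0.0475. The number of calls moved from 1 without control mRNA library 1 and 2 without control mRNA library 2 to 18 without control RISC library 2, and was also 18 without control RISC library 3, where 17 were lower and 1, Psme4, higher.

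The comparisons in miR-17-5p and control cells share no library. Among the 42 members tested in both, 28 were lower in RISC in miR-17-5p cells and 10 in control cells. The 6 lower in both were Psma6, Psmb2, Psmb4, Psmd4, Psmd7 and Psmg4, which are 21.4% of the miR-17-5p list and 60% of the control list. Over all genes these shares were 36.4% and 37.7%, but there 2264 of 10055 genes were lower in miR-17-5p cells and 2186 in control cells. With 28 of the 42 members lower in miR-17-5p cells, the shares are not on the same base. No agreement of the calls beyond that base is read from the 6. The log2 fold change was negative in both for 38 of the 42 (90.5%), against 47.7% of all genes. The remaining members were Psmc6, Psmd1, Psme3 and Psme4.

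The last comparison tested the difference of the miR-17-5p effect between RISC and mRNA in all 15 libraries. Of 45 members tested, 4 had a larger effect in RISC, Psma6, Psmd14, Psmb4 and Psmg2, against 13% of all 11418 genes, and none a smaller one, against 0.394%. Unadjusted p was under 0.05 for 7 of the 45. The adjusted p was 0.000137 for Psma6, 0.000362 for Psmd14, 0.000437 for Psmb4 and 0.0321 for Psmg2. These 4 had 0 or 1 counts over the control RISC libraries, and the fitted differences depend on the prior count, so no size is given. Psmg1, also at 0 there, had an adjusted p of 0.0669, and the next members in order of p, Psmg4, Psmd2 and Psmd7, had 0.143, 0.191 and 0.205. Among genes with counts in every library, Psmd2 had a difference of 0.63 ± 0.29 and Psmc6 of -0.03 ± 0.38 on the log2 scale. Limma-voom called none of the 45, and the calls numbered 8, 10 and 7 without control samples 1, 2 and 3. Psmg2 did not pass in most fits with a sample left out. Its edgeR adjusted p was 0.0524 without miR-17-5p sample 6 and 0.0835 without miR-17-5p sample 5. The medians over members and over all genes were 0.54 and 0.40.

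Among 28 further genes of the ubiquitin pathway in the files, none of the 27 tested was called in mRNA and 4 had an unadjusted p under 0.05, and in RISC 0 of 26 were called and 4 had one. In miR-17-5p cells 10 of 27 tested were lower in RISC and 8 higher, against 21.8% and 21.7% of all genes. Among the lower were Rps27a at -4.51 ± 0.16 and Ubb at -2.35 ± 0.19 on the log2 scale, and the remaining cap subunits Shfm1 at -6.51 ± 0.77 and Adrm1 at -0.98 ± 0.19. Zfand2a, Bag6 and Ubqln4 were also lower, with log2 fold changes from -1.05 to -0.59. Higher were Ddi2, the protease that activates Nfe2l1, at 2.11 ± 0.25, Ubqln2, a shuttle of ubiquitinated proteins, at 1.21 ± 0.17, Ubqln1 at 1.12 ± 0.17, and Uba1, Uba6, Ufd1l, Rad23b and Usp14 at 0.44 to 1.60. Nfe2l1 itself had 108, 89.2, 91.7, 111 and 109 CPM in miR-17-5p mRNA libraries, against 103, 113 and 85.1 CPM in control mRNA libraries (log2 fold change 0.02 ± 0.14, adjusted p = 0.951). In control cells 6 of 27 tested were lower, Shfm1, Ubb, Bag6, Uchl5, Adrm1 and Ngly1, a share near the 22.3% of all genes, and 3 were higher, Ubqln1, Ubqln2 and Zfand5, against 5.96%. The difference between RISC and mRNA was called for 2 of 27 partners, against 13.4% of all genes, Ngly1, a deglycosylase, and Uchl5, a deubiquitinase of the cap, both at 0 in all control RISC libraries. The immunoproteasome genes Psmb8 and Psmb9 were also at 0 there and had adjusted p of 0.0348 and 0.0152 for that difference, and in mRNA Psmb8, Psmb9 and Psmb10 had log2 fold changes of 0.59 ± 0.35, 0.10 ± 0.31 and -0.03 ± 0.24, with none passing.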

How the data were processed

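Islet cells were measured by poly(A) mRNA sequencing (8 libraries) and by sequencing of RNA from Ago2 immunoprecipitates (7 libraries), single-end and without strand, per the labels. The authors deposited gene counts per library from HTSeq, and the submitters' processing notes also name the rat build rn5, TopHat2 2.0.10, Bowtie2, DESeq and edgeR. The 5 summary lines of each file were left out. Totals were 3379456 to 21056240 counts.

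Counts were tested here with edgeR 4.0.16 in R 4.3.3 (quasi-likelihood F-test, TMM factors, filterByExpr, robust), with Benjamini-Hochberg adjustment over all genes of each comparison and a threshold of 0.05. Printed CPM use the TMM factors of all 15 libraries, and adjusted p-values in the text are from edgeR unless another tool is named. DESeq2 1.42.0, limma-voom (limma 3.58.1), other scalings and filters, a replicate block and each library left out were tried. For the difference, the mRNA and RISC libraries of a mimic with the same number were left out together, as a sample. The fit was tested on simulated data. Intervals (95%) and the floor of 3 counts cover counting error only, and reads without molecular identifiers are not independent molecules. Same-numbered libraries did not deviate together (correlations from -0.179 to 0.0488), so numbers were not used as pairs in the main tests. In GRCr8, 8 of the genes overlap another protein-coding gene and 19 have like-named copies or pseudogenes, so their counts are uncertain.

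Members and lists were chosen with earlier results of these data known. Values in every library are given for catalytic subunits and other genes picked by role, for genes called in the mRNA, RISC or difference comparison, and for the 5 with the smallest p in each comparison. Values of some pathway genes are not reported here.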

Additional observations from a re-analysis of the deposited data

Results flagged for a closer look

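Among 62 groups of values tested for 1 library far from the others, 9 were found. Chance gives about 1 in 20 only for independent values of normal spread. Here the groups share libraries, and a gene with counts in 1 library alone, such as Psmd10 or Psmc3ip, is always found. No excess over chance is therefore read from the 9. In miR-17-5p mRNA library 2, Psmd14 was at 53.2 CPM, Psmg1 at 30.3 CPM and Psmd9 at 81.8 CPM, the summed ATPases were at 823 CPM and the summed activators and inhibitor at 357 CPM, each far above the other 4 libraries of its group. In miR-17-5p RISC library 4, Psma6 was at 22.3 CPM and Psmd10 at 1.41 CPM, and Psmd10 had 0 counts in the other 3 libraries. In miR-17-5p RISC library 5, Psmc3ip was at 1.68 CPM with 0 counts in the other 3. In miR-17-5p RISC library 6, Psmd2 was at 359 CPM, far above the other 3.

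The effect of miR-17-5p differed between RISC and mRNA in 4 of 45 genes by edgeR's test of that difference, all with a larger effect in RISC, against 13% of all genes, and limma-voom called 0. The adjusted p was 0.000137 for Psma6, 0.000362 for Psmd14, 0.000437 for Psmb4 and 0.0321 for Psmg2, all with 0 or 1 counts in the control RISC libraries. Psmg2 did not pass in most fits with a sample left out.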

How the results depend on the processing

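In mRNA, 0 members were called under 6 of the 8 other settings, and 1, Psmc6, with DESeq2 and with limma-voom, while leaving out single libraries gave 0 to 1. In RISC, DESeq2 called 3 and the other 6 settings 0, and leaving out single libraries gave 0 to 6. For RISC over mRNA in control cells, a mean of at least 50 counts gave 6 calls and limma-voom 17 against 10, and leaving out single libraries gave 1 to 18. In miR-17-5p cells the 32 calls became 27 to 36 under the other settings and 29 to 36 with a library left out. For the difference, limma-voom gave 0 calls against 4, and leaving out single samples gave 3 to 10. The cause was not tested. The sign of a named gene's log2 fold change turned in 32 cases under another setting, none passing there. It turned in 33 of 119 gene results with a library, or for the difference a sample, left out. Of these, 2 passed with the turned sign, Psma7 and Psmb6 for the difference. The ranges for the difference given below also leave out a sample. With upper quartile factors the values were in mRNA Psme4 0.016, and for RISC over mRNA in control cells Psmc6 0.082. With a mean of at least 50 counts the values were in mRNA Psme4 0.0056, and for the difference Psmc6 0.13. Under limma-voom the values were in mRNA Psmd1 -0.017, Psmd10 0.20, Psme4 0.13 and Psmb4 -0.0076, and in RISC Psmb6 3.12, Psma7 2.62, Psme1 0.24, Psmd9 0.86 and Psmd8 3.10, and for RISC over mRNA in control cells Psme4 -1.07 and Psmc6 0.061, and for the difference Psmb6 3.11, Psma7 1.91, Psme1 0.15, Psmd9 0.11 and Psmd8 3.91. Without Ins1, Ins2 and Rn45s the values were for RISC over mRNA in control cells Psmc6 0.014. With DESeq2 size factors in edgeR the values were for RISC over mRNA in miR-17-5p cells Psmc6 -0.0056. With the DESeq2 Wald test the values were for RISC over mRNA in miR-17-5p cells Psmc6 -0.0054. With a library left out, the lowest and highest values were in mRNA Psmd10 -0.54 to 0.40, Psmb5 -0.015 to 0.23, Psmb6 -0.023 to 0.44, Psmg1 -0.16 to 0.36, Psme2 -0.090 to 0.41, Psmg2 -0.20 to 0.36, Psma7 -0.051 to 0.094, Psmd11 -0.17 to 0.098, Psme4 -0.15 to 0.24, Psmf1 -0.29 to 0.088, Psmd2 -0.010 to 0.089, Psmd7 -0.059 to 0.13 and Psmc5 -0.022 to 0.13, and in RISC Psma7 -1.09 to 6.11, Psmd11 -0.14 to 1.48, Psmb6 -0.83 to 6.71, Psme1 -0.55 to 0.37, Psmd9 -1.38 to 0.59, Psme4 -0.43 to 0.89, Psmf1 -0.53 to 1.17 and Psmd8 -1.19 to 0.22, and for RISC over mRNA in control cells Psmc6 -0.31 to 0.25 and Psme4 -0.039 to 1.30, and for the difference Psma7 -1.06 to 6.42, Psmc6 -0.19 to 0.48, Psmb6 -1.04 to 6.63, Psme1 -0.59 to 0.45, Psmd9 -1.64 to 0.12, Psme4 -0.49 to 1.19, Psmf1 -0.46 to 1.53, Psmd8 -1.12 to 0.32, Psmd10 -0.17 to 5.50 and Psmc3ip -1.36 to 4.50.

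The replicate numbers were not used as pairs, since same-numbered libraries did not deviate together. That check cannot exclude a shared source, because values varied widely between RISC libraries. With the replicate block, 0 members were called in mRNA, 0 for RISC over mRNA in control cells, 27 for RISC over mRNA in miR-17-5p cells and 0 for the difference. With the replicate block the values with a turned sign were in mRNA Psma7 -0.097, Psmd11 0.26, Psme4 0.16, Psmf1 0.26 and Psmd2 -0.0020, and for RISC over mRNA in control cells Psme4 -0.062, and for the difference Psmb6 3.35, Psma7 2.68 and Psmd8 0.13. No paired analysis was possible because the RISC groups of the 2 mimics share 1 number, for the comparison of miR-17-5p with control in RISC. A count of 0 in a control RISC library allows up to 0.167 to 0.478 CPM (3 counts). With every library thinned to 3379456 counts, 8888 to 10622 genes had a count in miR-17-5p RISC libraries and 5474 to 7027 in control RISC libraries.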
